A study of Mus musculus with 4 samples.

Results

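The genes described here are 54 mouse genes of DNA damage signalling, DNA repair and the p53 response, out of 53465 gene identifiers in the count table. They were listed by name and all 54 were found in the table. By role they are 8 genes of the damage checkpoint, 11 of double-strand break repair, 3 of crosslink repair (the Fanconi anaemia pathway), 10 of nucleotide excision repair, 4 of translesion synthesis, 5 of base excision, single-strand break and mismatch repair, and 13 target genes of the transcription factor p53. Their RNA was compared between 2 control libraries (replicates 1 and 2) and 2 libraries (replicates 2 and 3) of cells exposed to 5 µM 1-nitropyrene for 12 h. 1-Nitropyrene is a nitrated aromatic hydrocarbon of diesel exhaust, and its reduced metabolites bind to DNA bases. All 4 libraries are polyadenylated RNA labelled as MLE-12, a mouse line derived from lung tumours and used as a stand-in for the distal lung epithelium. The cells grew in medium with 10% fetal bovine serum. No vehicle is named for the controls in the sources used here, and they do not state whether separate cultures were used. P-values therefore rest only on the spread between these libraries, which may be technical. The main fit took this spread as shared by genes of similar level. Its p-values and 95% intervals therefore take no account of a gene's own spread.

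Damaged DNA is sensed by the kinases ATM, which responds mainly to double-strand breaks, and ATR, which responds to single-stranded DNA at stalled replication forks. They activate the kinases CHK2 and CHK1 and the transcription factor p53, which induces genes for cell cycle arrest, repair and cell death. Bulky adducts such as those of nitrated hydrocarbons are removed by nucleotide excision repair, and translesion polymerases copy past those that remain. MLE-12 cells carry a simian virus large T antigen, a protein that binds p53, which limits the line as a model of the p53 response.

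The p53 targets among the members were first examined for p53 binding letters near their starts, since these genes are grouped by that factor. RefSeq (GRCm38.p6) gave a start for 43 of the 54 members and for 10 of the 13 p53 targets, some with several starts. The p53 half-site, a run of 10 bases that reads the same way on either strand by its consensus, was searched in the 250 bases before each start. It was found at 8 of the 10 p53 targets (8 of 13 windows, 61.5%), against 7.13% of all 32851 windows and 20.4% of the 49 windows of members. The 49 windows include those of the p53 targets. These genes were listed as targets of p53, so their share is a description and not a test. The other members with a half-site were Fanca and Polk. The sequences are given 5′ to 3′ on the strand of the gene, with the half-site in capitals and up to 10 bases on either side.
Mdm2, chr10:117710925-117710954, minus strand: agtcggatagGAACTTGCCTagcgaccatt
Cdkn1a, chr17:29090918-29090947, plus strand: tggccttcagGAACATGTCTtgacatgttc
Cdkn1a, chr17:29090896-29090925, plus strand: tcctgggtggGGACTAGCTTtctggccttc
Bax, chr7:45467080-45467109, minus strand: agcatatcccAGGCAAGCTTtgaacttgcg
Sesn1, chr10:41887256-41887285, plus strand: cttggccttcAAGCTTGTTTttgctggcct
Aen, chr7:78895927-78895956, plus strand: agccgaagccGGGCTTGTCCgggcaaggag
Gadd45a, chr6:67037428-67037457, minus strand: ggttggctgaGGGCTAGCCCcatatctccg
Ckap2, chr8:22186003-22186032, minus strand: ctgtgtctgaAGACATGTCCtgacttgtca
Ei24, chr9:36797335-36797354, minus strand: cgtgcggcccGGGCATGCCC
The half-site of Ei24 takes the last 10 bases before its RefSeq start, and that of Mdm2 lies 177 to 186 bases before its RefSeq start. By GENCODE coordinates, used for the gene spans below, the half-sites of Ei24, Gadd45a, Aen and Sesn1 lie inside the gene. A match describes these letters only, and no binding was measured.

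Total counts per library ranged from 6908055 to 10773733. Of 21942 annotated protein-coding genes 55.2% had 0 counts in all 4 libraries, and the median cytosolic ribosomal protein gene had between 5 and 10 counts per library, although every growing cell makes these proteins. Whether the reads came from mouse cells throughout was not tested. Every level, 0 and fold below therefore describes counts assigned to mouse loci, and a count of 0 does not show that the gene was silent. Of 14 markers of lung epithelium 11 were at 0 in all libraries, including Sftpb, Nkx2-1, Epcam, Cdh1 and Krt8, and 13 had at most 2 counts in total. Abca3 alone passed the filter, so the labelled cell type could not be checked with these markers. All 8 leukocyte and all 6 endothelial markers had at most 2 counts in total. The 11 fibroblast markers all had counts and summed to 351 and 347 CPM (counts scaled to a common library total) in the controls, and to 387 and 401 CPM in the treated libraries. Most of that was Vim, which is not particular to fibroblasts and was called higher (log2 fold change 0.23, SE 0.04, adjusted p = 8.88e-09, edgeR). The other 10 markers together went the other way, at 11.7 and 5.93 CPM in the controls versus 3.30 and 1.05 CPM after exposure. Among them Acta2 was called lower by edgeR, with 36 and 7 counts in the controls versus 12 and 0 after exposure. The 13 mitochondrial mRNAs summed to 46.9 and 30.4 CPM in the controls and to 24.6 and 1.86 CPM in the treated libraries.

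Of the 32 transcripts that could be tested 3 were called with 1-nitropyrene, in a table where 24.5% of all tested genes were called and 9.34% of those under 10 CPM, where 16 of the 32 lay. The death-associated p53 target Ei24 and the kinase gene Atm fell, and the Ku subunit gene Xrcc5 rose from a low count. No member of the crosslink, nucleotide excision, translesion or base excision and mismatch groups was called by edgeR, and 0 of their 13 tested genes had an unadjusted p under 0.05, as 2651 of all 7738 tested genes did. The checkpoint kinase genes Chek1 and Atr and the excision factor gene Ddb1, all among the better measured, had 95% intervals of the ratio within 1.5-fold in either direction, at 0.962 to 1.17 for Chek1, 0.799 to 1.04 for Atr and 0.968 to 1.08 for Ddb1. Cdkn1a, the cyclin-dependent kinase inhibitor through which p53 stops the cell cycle, had 0 counts in all 4 libraries. In bulk RNA, fewer cells with a transcript and less of it per cell cannot be told apart.

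Of the 54 members, 32 passed the filter on low counts and were tested. Among these, edgeR's quasi-likelihood test at an adjusted p under 0.05 called 3, with 1 higher and 2 lower. Over all 7738 genes tested, 24.5% were called, 13.2% higher and 11.2% lower. The share depended on the level of the gene. It was 9.34% of genes with a mean under 10 CPM, 23.5% at 10 to 50 CPM and 48.2% at 50 CPM or more. The tested members numbered 16, 13 and 3 in these ranges, with 2, 0 and 1 called. The libraries of the groups did not overlap in 59.2% of all genes tested, and among the members 8 lay wholly above and 7 wholly below the controls. The median log2 fold change was -0.01 over the tested members and -0.00354 over all genes. By levels in normalised CPM the members together summed to 788 and 776 in the controls and to 752 and 768 in the treated libraries.

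**Figure D1:**
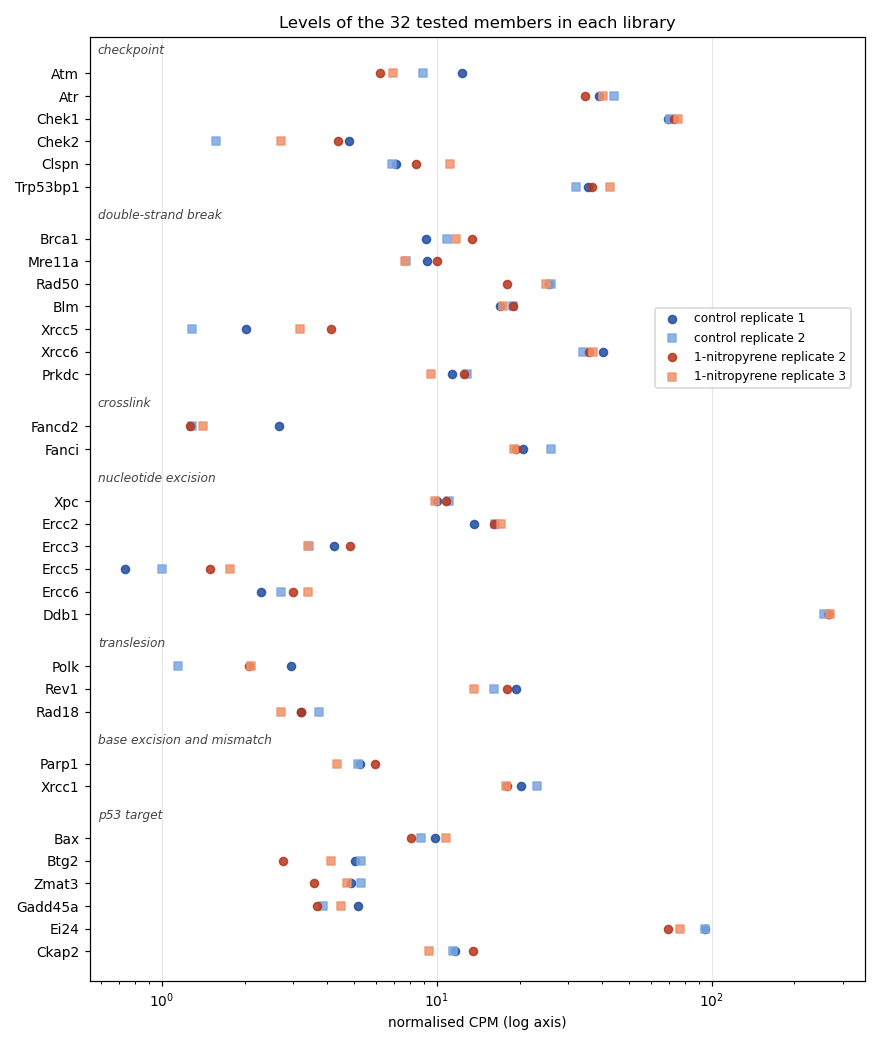
Normalised CPM (log axis) of the 32 tested members in each of the 4 libraries, grouped by role. Blue points are controls and red points 1-nitropyrene; for Ei24 and Atm both red points lie to the left of both blue points, and for Xrcc5 to the right.

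**Figure D2:**
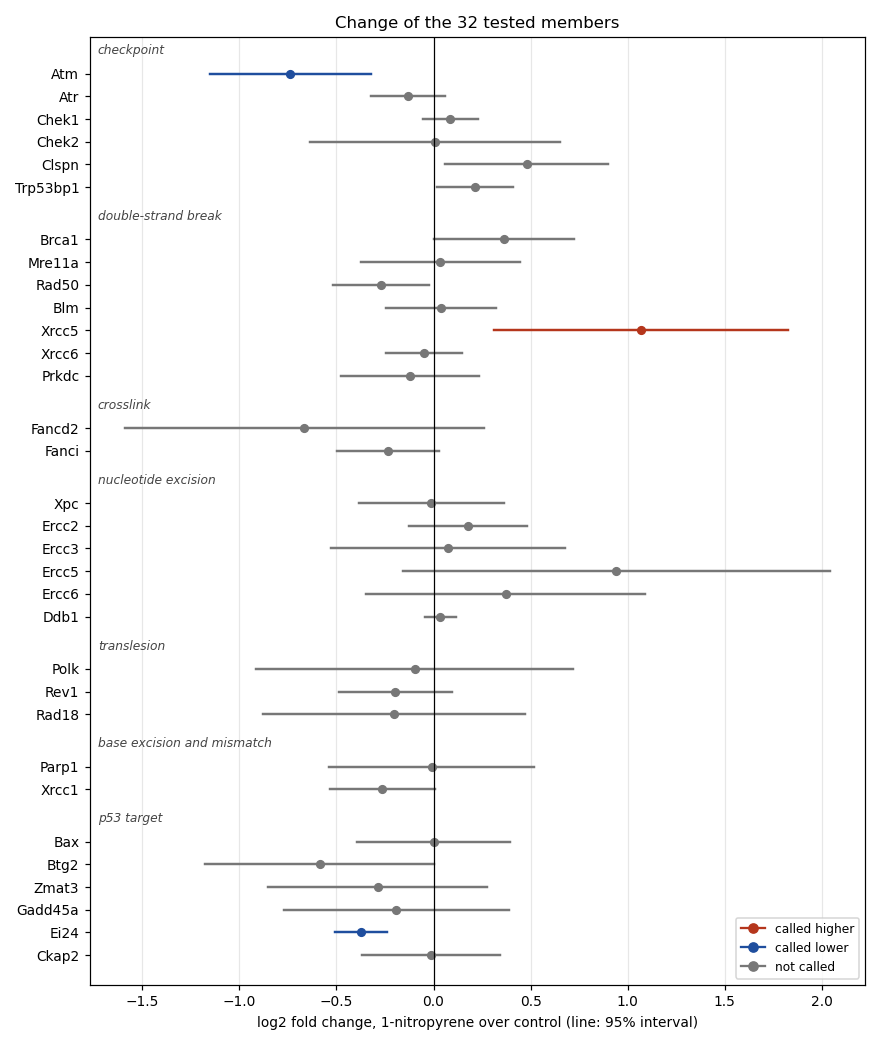
Log2 fold change of 1-nitropyrene over control for the 32 tested members, with 95% intervals from edgeR. The intervals of 18 members lie within a 1.5-fold change in either direction and those of 26 within a 2-fold change, and 3 members were called.

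Among the 8 checkpoint genes 6 were tested, and Atm was called lower. Atm (GRCm38 chromosome 9, 53439149 to 53536740) encodes the kinase that responds to double-strand breaks. It was at 12.3 and 8.88 normalised CPM in the controls as against 6.21 and 6.93 CPM under 1-nitropyrene. Both treated libraries lay below both controls, and the controls themselves were 1.39-fold apart, with an exact 95% interval of 1.02 to 1.91 that covers counting error only. The mean moved from 10.6 ± 2.43 CPM to 6.57 ± 0.511 CPM (SD, n = 2 libraries each), which was -0.74 on the log2 scale (SE 0.21, edgeR, adjusted p = 0.00343). The call was lost without control replicate 1 (-0.44, adjusted p = 0.375), without 1-nitropyrene replicate 2 (-0.66, adjusted p = 0.0561) and in DESeq2 (-0.70, adjusted p = 0.189). Control replicate 1 was highest for Atm, as it was for the mitochondrial mRNAs and the 10 fibroblast markers other than Vim, whose lowest library was 1-nitropyrene replicate 3. The sum with Vim was highest in 1-nitropyrene replicate 3. The part of these transcripts in the result was not tested.

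By GENCODE coordinates Atm starts 306 bases from the divergent gene Npat, which encodes a regulator of histone genes. Npat had 66 and 67 counts in the controls versus 67 and 66 after exposure, and its log2 fold change was 0.05 (SE 0.22, adjusted p = 0.91, edgeR). The controls of Npat, at 6.07 and 9.60 CPM, differed in the direction opposite to those of Atm. The 250 bases before the RefSeq start of Atm (chr9:53536672-53536921, minus strand) are printed below. They cover only part of the region between the genes, and some lie inside the GENCODE span of Atm. A GC box (GGGCGG) and a CCAAT box (as ATTGG) are in capitals.
Atm: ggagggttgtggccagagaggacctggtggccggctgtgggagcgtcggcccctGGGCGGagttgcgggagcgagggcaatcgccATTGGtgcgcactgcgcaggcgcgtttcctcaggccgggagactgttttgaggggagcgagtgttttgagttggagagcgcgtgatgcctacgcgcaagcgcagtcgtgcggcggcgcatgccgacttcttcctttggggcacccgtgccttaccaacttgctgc
Read on either strand, GGGCGG occurs in 32.7% and CCAAT in 33.8% of all windows.

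Atr encodes the kinase of stalled forks. It was at 38.8 and 44.2 CPM in the controls as against 34.7 and 40.2 CPM under 1-nitropyrene, so the groups overlapped. Its log2 fold change was -0.13 (SE 0.10, adjusted p = 0.351, edgeR). Chek1 encodes CHK1, the kinase that ATR activates. It was the best measured kinase, at 69.4 and 70.7 CPM in the controls versus 73.1 and 75.5 CPM after exposure. Both treated libraries lay above both controls by a small margin, and the ratio of 1.06 had a 95% interval of 0.962 to 1.17 (adjusted p = 0.425, edgeR).

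Chek2, the gene of CHK2, the kinase below ATM, was at 4.78 and 1.57 CPM in the controls as against 4.37 and 2.70 CPM under 1-nitropyrene. The 2 controls were 3.03-fold apart, more than the groups. The ratio between groups was 1.01, with a 95% interval of 0.645 to 1.57 that takes no account of this gene's own spread. Clspn encodes claspin, which brings CHK1 to ATR. It was at 7.08 and 6.87 CPM in the controls versus 8.39 and 11.2 CPM after exposure, a log2 fold change of 0.48 that was not called (SE 0.21, adjusted p = 0.0884, edgeR).

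Trp53bp1 encodes a chromatin protein that directs breaks towards end joining. It was at 35.5 and 32.1 CPM in the controls as against 36.7 and 42.5 CPM under 1-nitropyrene (log2 fold change 0.21, SE 0.10, adjusted p = 0.111, edgeR). It shares 2130 bases of exon with the opposite-strand gene Tubgcp4. The counts of these genes were nearly equal, 386 and 382 in control replicate 1, 224 and 222 in control replicate 2, 319 and 348 in 1-nitropyrene replicate 2, and 362 and 357 in 1-nitropyrene replicate 3. Tubgcp4 was called higher (log2 fold change 0.28, SE 0.10, adjusted p = 0.0267, edgeR). Whether counting used strand is not stated in the sources used here. If it did not, reads in the shared bases, out of 14164 exon bases of Trp53bp1, cannot be told apart. Exons of 11 of the 32 tested members overlap those of a gene on the other strand, among them Atr, Ercc2, Rev1 and Ei24. The checkpoint adaptors Topbp1 and Mdc1 had 3 and 7 counts in total and were not tested.

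Of the 11 double-strand break genes 7 were tested, and Xrcc5 was called higher. Xrcc5 (chromosome 1, 72307421 to 72394952) encodes Ku80, which with Ku70 holds broken ends for end joining. It had 22 and 9 counts in the controls versus 36 and 27 after exposure, or 2.02 and 1.29 CPM against 4.14 and 3.17 CPM. Both treated libraries lay above both controls. The mean moved from 1.66 ± 0.518 to 3.65 ± 0.683 CPM (SD, n = 2 libraries each), which was 1.07 on the log2 scale (SE 0.39, edgeR, adjusted p = 0.0269). This call rested on few reads. It was lost without control replicate 1 (adjusted p = 0.0666), without control replicate 2 (0.197), without 1-nitropyrene replicate 2 (0.21), in limma-voom (0.0505) and with no filter on low counts (0.0744). DESeq2 gave Xrcc5 a log2 fold change of 1.12 and an unadjusted p = 0.0693, with no adjusted p.

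The 250 bases before the Xrcc5 start (chr1:72307171-72307420, plus strand) are printed with an E-box (CACGTG) and a CCAAT box (as ATTGG) in capitals, to set beside those of Atm and Ei24.
Xrcc5: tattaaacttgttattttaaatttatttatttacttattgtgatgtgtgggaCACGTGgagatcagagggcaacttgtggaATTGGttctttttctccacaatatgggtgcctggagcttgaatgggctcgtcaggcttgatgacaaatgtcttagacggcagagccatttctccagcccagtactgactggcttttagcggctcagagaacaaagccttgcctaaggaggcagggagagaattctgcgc
The Xrcc5 window held no p53 half-site and no GC box, and 44.8% of its bases were G or C, against 66% in Atm, 63.2% in Ei24 and a median of 52.4% over all windows. CACGTG occurs in 6.02% of all windows.

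The genes of the partner of Ku80 and of the kinase that Ku recruits were not called. Xrcc6, which encodes Ku70, was at 40.2 and 34.1 CPM in the controls as against 35.9 and 37.1 CPM under 1-nitropyrene, inside the range of the controls. Its ratio was 0.966 with a 95% interval of 0.843 to 1.11 (adjusted p = 0.778, edgeR). Prkdc encodes the catalytic subunit of the DNA-dependent protein kinase. It was at 11.4 and 12.9 CPM in the controls versus 12.5 and 9.51 CPM after exposure, so the groups overlapped (log2 fold change -0.12, SE 0.18, adjusted p = 0.69, edgeR).

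Homologous recombination uses a homologous copy as template and was represented by Brca1, Blm, Mre11a and Rad50 among the tested members. Brca1, whose product directs breaks to this route, was at 9.10 and 10.9 CPM in the controls as against 13.4 and 11.7 CPM under 1-nitropyrene, above both controls in both libraries. Its log2 fold change of 0.36 (SE 0.18) was not called (adjusted p = 0.145, edgeR). Rad50, a subunit of the end-resecting MRN complex, was at 25.6 and 26.1 CPM in the controls versus 17.9 and 24.9 CPM after exposure. The ratio of its 2 treated libraries was 0.72 (exact 95% interval 0.582 to 0.89, for counting error only). Such intervals, not adjusted for their number, excluded 1 for 3 of 32 members in the treated pair and 5 of 32 in the control pair. Rad50 was not called with all libraries (-0.27, adjusted p = 0.104) and was called without 1-nitropyrene replicate 3 (-0.53, adjusted p = 0.00882, edgeR). Mre11a, the nuclease of the same complex, was at 9.19 and 7.73 CPM against 10.0 and 7.63 CPM, and the helicase gene Blm at 16.9 and 18.9 CPM against 19.0 and 17.4 CPM. Groups overlapped in both. The remaining members of this group, Brca2, Palb2, Nbn and Exo1, had at most 4 counts in total.

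**Figure D3:**
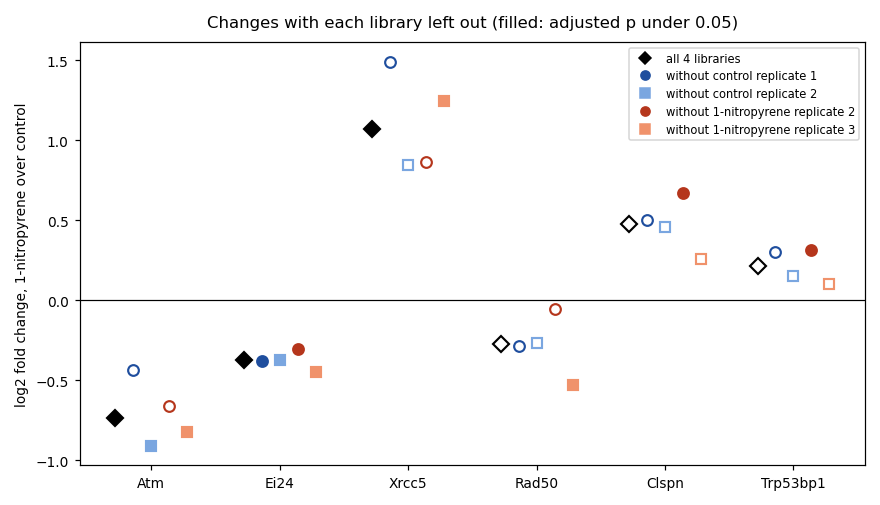
Log2 fold change of 1-nitropyrene over control for 6 members, with all 4 libraries (diamond) and with each library left out; filled symbols passed an adjusted p under 0.05 in edgeR. Ei24 is filled in every setting shown, Atm and Xrcc5 lose the call when single libraries are left out, and Rad50, Clspn and Trp53bp1 each gain it in 1 setting.

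Crosslink repair by the Fanconi pathway unhooks strands that are joined across the helix at stalled forks. Fanci, whose product pairs with that of Fancd2, was at 20.6 and 25.9 CPM in the controls as against 19.4 and 19.1 CPM under 1-nitropyrene, both below both controls (log2 fold change -0.24, SE 0.13, adjusted p = 0.198, edgeR). Fancd2 had 29 and 9 counts in the controls versus 11 and 12 after exposure. Control replicate 1 was highest and the other 3 libraries lay close together, and the 95% interval of the ratio ran from 0.333 to 1.20. Fanca had 1 count in 1 library.

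Nucleotide excision repair, the route that removes bulky adducts, had 6 of 10 members tested, none of them called. Ddb1, whose product is the damage-binding adaptor of a cullin ubiquitin ligase, had the highest level per length of the members, at 40.8 control CPM per kilobase of exon. It was at 266 and 257 CPM in the controls as against 267 and 269 CPM under 1-nitropyrene. All treated values lay just above the controls, and the log2 fold change was 0.04 (SE 0.04, adjusted p = 0.589, edgeR). Xpc, whose product recognises distorted DNA across the genome, was at 10.0 and 11.03 CPM in the controls versus 10.8 and 9.86 CPM after exposure. The groups of Xpc overlapped, with a ratio between 0.766 and 1.29 by its 95% interval. Ercc2 and Ercc3 encode the XPD and XPB helicases of the transcription factor TFIIH, which unwinds the lesion. Ercc2 was at 13.6 and 16.3 CPM against 16.1 and 17.1 CPM and Ercc3 at 4.23 and 3.44 CPM against 4.83 and 3.40 CPM. Neither separated the groups.

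The low nucleotide excision genes Ercc5 and Ercc6 lay above both controls in both treated libraries. Ercc5, which encodes the nuclease XPG that cuts on one side of the lesion, had 8 and 7 counts in the controls as against 13 and 15 under 1-nitropyrene (log2 fold change 0.94, SE 0.56, adjusted p = 0.228, edgeR). Ercc6 encodes the coupling factor CSB of transcribed genes and had 25 and 19 counts against 26 and 29 (0.37, SE 0.37, adjusted p = 0.51, edgeR). At these counts a doubling lay inside both intervals, which reached ratios of 4.12 and 2.13. Ddb2, of a sensor of ultraviolet lesions, had 5 and 5 counts in the controls versus 4 and 5 after exposure and was not tested. Ercc4, of the nuclease XPF, had 2 and 8 against 2 and 2, and Xpa and Ercc1 had 0 in all libraries.

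The translesion genes gave no call. Rev1, a scaffold for the other translesion polymerases, was at 19.5 and 16.2 CPM in the controls as against 18.0 and 13.6 CPM under 1-nitropyrene. Rad18, of the ligase that marks the sliding clamp PCNA at stalled forks, was at 3.22 and 3.72 CPM against 3.22 and 2.70 CPM. Polk encodes polymerase kappa, which bypasses bulky guanine adducts. It had 32 and 8 counts in the controls versus 18 and 18 after exposure. The controls of Polk were 2.57-fold apart (exact 95% interval 1.16 to 6.45) and enclosed the treated libraries. Polh, of the polymerase for ultraviolet dimers, had 0 counts in all libraries.

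Base excision and mismatch repair had 2 of 5 members tested. Parp1, whose product senses single-strand breaks, was at 5.24 and 5.16 CPM in the controls as against 5.98 and 4.34 CPM under 1-nitropyrene, on either side of the controls. Its ratio was 0.993, with a 95% interval of 0.688 to 1.43 (adjusted p = 0.985, edgeR). Xrcc1, the scaffold that PARP1 recruits, was at 20.3 and 23.2 CPM in the controls versus 17.9 and 17.9 CPM after exposure, below both controls in both libraries. Its log2 fold change of -0.26 (SE 0.14) was not called (adjusted p = 0.162, edgeR). The oxidised-base glycosylase genes Ogg1 and Mutyh had 0 counts, and the mismatch gene Msh6 had 7 and 0 counts against 5 and 2.

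Of the 13 p53 targets 6 were tested, with 1 lower and 0 higher, and Ei24 alone had an unadjusted p under 0.05. Of all 7738 tested genes 11.2% were called lower and 13.2% higher, and 2651 had an unadjusted p under 0.05. Nothing is read from the number of p53 targets called. Ei24 (chromosome 9, 36779159 to 36797393) encodes a membrane protein of the endoplasmic reticulum with roles in cell death and autophagy. It was at 94.5 and 94.8 CPM in the controls as against 69.5 and 76.5 CPM under 1-nitropyrene. The controls nearly coincided and both treated libraries lay below them. The mean moved from 94.6 ± 0.235 to 73.0 ± 4.98 CPM (SD, n = 2 libraries each), which was -0.37 on the log2 scale (SE 0.07, edgeR, adjusted p = 7.02e-07) and a ratio of 0.772 (95% interval 0.704 to 0.846). With 1 library left out the log2 fold change lay between -0.44 and -0.31, and in DESeq2 it was -0.37 (adjusted p = 0.0074). Ei24 was called in these fits. The mitochondrial sum and the sum of the 10 fibroblast markers other than Vim were also lower in both treated libraries, while the sum with Vim was higher, and their part in the result was not tested. Ei24 shares 324 bases of exon with the opposite-strand gene Gm26787, which had far fewer counts, 113 against 1028 of Ei24 in control replicate 1.

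The 250 bases before the RefSeq start of Ei24 (chr9:36797335-36797584, minus strand) are printed because Ei24 had the smallest adjusted p of the members. Some of these bases lie inside the GENCODE span of Ei24. Capitals mark 3 GC boxes, read here as CCGCCC, and the p53 half-site that ends the run.
Ei24: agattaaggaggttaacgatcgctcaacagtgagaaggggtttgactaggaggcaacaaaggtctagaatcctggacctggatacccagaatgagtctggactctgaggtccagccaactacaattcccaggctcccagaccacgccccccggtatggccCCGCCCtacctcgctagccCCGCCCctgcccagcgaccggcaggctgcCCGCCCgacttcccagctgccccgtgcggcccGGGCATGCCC

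The other tested p53 targets were not called. Bax, whose product permeabilises mitochondria in apoptosis, was at 9.83 and 8.74 CPM in the controls versus 8.04 and 10.8 CPM after exposure, on either side of the controls (ratio 1.00, 95% interval 0.762 to 1.32, adjusted p = 0.996, edgeR). Gadd45a, a stress-induced partner of PCNA and of checkpoint proteins, was at 5.15 and 3.87 CPM against 3.68 and 4.46 CPM, and the groups overlapped (log2 fold change -0.19, SE 0.30, adjusted p = 0.697, edgeR). Btg2, an antiproliferative cofactor of mRNA deadenylation, was at 5.05 and 5.30 CPM in the controls as against 2.76 and 4.11 CPM under 1-nitropyrene. Both treated libraries of Btg2 lay below both controls, and the log2 fold change of -0.59 (SE 0.30) was not called (adjusted p = 0.149, edgeR). Zmat3, an RNA-binding zinc finger protein, was at 4.87 and 5.30 CPM against 3.56 and 4.70 CPM. Ckap2, a spindle-associated protein, was at 11.7 and 11.5 CPM in the controls versus 13.6 and 9.39 CPM after exposure. Its treated libraries had a ratio of 1.44 (exact 95% interval 1.08 to 1.94, for counting error only and not adjusted) and lay on either side of the controls.

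The genes most used as readouts of p53 activity gave too few counts for a test. Cdkn1a had 0 counts in each library, which allows up to 0.278 CPM in the deepest and 0.434 CPM in the shallowest if 3 counts are taken as the floor, for counting error only. Mdm2, the ubiquitin ligase that degrades p53 and is itself a p53 target, had 1 and 2 counts in the controls as against 0 and 0 under 1-nitropyrene. Sesn1, a stress-induced regulator of the kinase mTORC1, had 0 and 0 against 1 and 4. Trp53inp1 had 5 and 1 against 2 and 3, Rrm2b, of the p53-induced ribonucleotide reductase subunit, had 2 and 1 against 3 and 0, and Apaf1, of the apoptosome, had 0 and 0 against 2 and 0. Aen had none. No comparison was made for these genes.

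**Figure D4:**
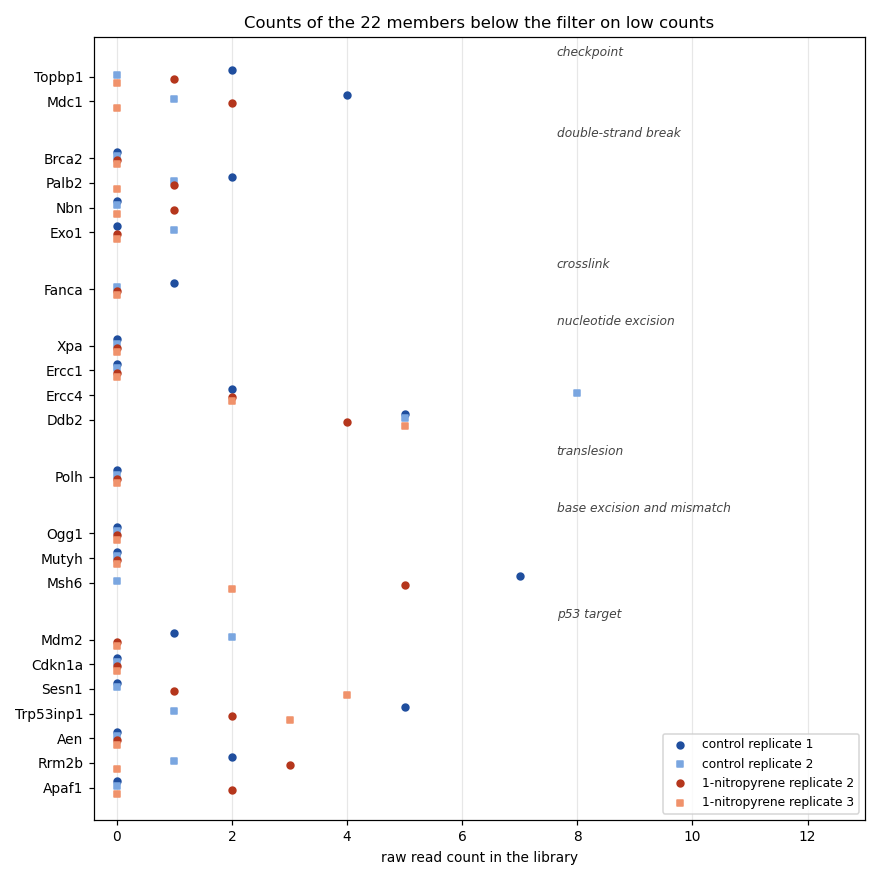
Raw read counts in each library of the 22 members below the filter on low counts, grouped by role. Of these, 8 members are at 0 in all 4 libraries and no member exceeds 19 counts in total.

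Of the 22 untested members 8 were at 0 in all 4 libraries, 6 had 1 to 3 counts in total and 8 had 4 to 19. Among the 54 members 14.8% were at 0 throughout, against 55.2% of protein-coding genes, and 59.3% were tested, against 30.7%. The precision of the tested members followed their level. Their median SE of the log2 fold change was 0.30 under 10 CPM, 0.14 at 10 to 50 CPM and 0.07 at 50 CPM or more.

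A further 171 genes of the same pathways were listed by function. Of these 83 were tested, with 7 higher and 10 lower, or 20.5% called, near the 24.5% of all tested genes (13.2% higher, 11.2% lower). The calls are therefore given gene by gene and nothing is read from their number. The median log2 fold change was -0.03. The sliding clamp gene Pcna, which is also a p53 target and a replication gene, rose most. It was at 29.0 and 26.6 CPM in the controls versus 42.9 and 47.8 CPM after exposure, with no overlap (log2 fold change 0.69, SE 0.10, adjusted p = 4.57e-10, edgeR). Ung, the glycosylase gene that removes uracil from DNA, was at 22.9 and 22.6 CPM against 33.4 and 32.05 CPM (0.52, SE 0.12, adjusted p = 8.78e-05). Gpx1, an antioxidant peroxidase, was higher by 0.26 (SE 0.04), Cdc25a, the phosphatase that CHK1 restrains, by 0.35 (SE 0.10), Cul4b, a cullin partner of DDB1, by 0.34 (SE 0.08) and the DNA ligase gene Lig3 by 0.27 (SE 0.09). Cul4b and Cdc25a were not called in DESeq2 (adjusted p = 0.0656 and 0.151), and Cdc25a not without control replicate 1 (0.101). Lig3 lost its call in DESeq2 (adjusted p = 0.283), without control replicate 1 (0.356) and without 1-nitropyrene replicate 2 (0.0771). Of 7284 exon bases of Lig3, 1826 overlap exons of the opposite-strand gene Rffl. Pcna, Ung and Gpx1 were called in DESeq2 as well and with each library left out in edgeR.

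Genes of the wider list that fell came from 6 of its 7 roles. Rev3l, the catalytic subunit of translesion polymerase zeta, was at 50.2 and 51.3 CPM in the controls as against 41.5 and 40.5 CPM under 1-nitropyrene (log2 fold change -0.30, SE 0.09, adjusted p = 0.00513, edgeR). Smc6, of a complex that resolves joined chromatids, fell by 0.17 (SE 0.05), the XPC partner gene Rad23b by 0.13 (SE 0.04) and the recombination motor gene Rad54l by 0.18 (SE 0.07). Brcc3, a deubiquitinase of the BRCA1-A complex, fell by 0.47 (SE 0.14), Ccnh, the cyclin of TFIIH, by 0.36 (SE 0.13), the hydrolase gene Ephx1 by 0.47 (SE 0.16) and Tdp1, which frees trapped topoisomerase, by 0.76 (SE 0.29). The checkpoint kinase gene Wee1 fell by 0.34 and Uimc1, of the BRCA1-A complex, by 0.45. With all libraries, edgeR gave an adjusted p of 0.00234 for Smc6, 0.00345 for Rad23b, 0.007135 for Brcc3, 0.0192 for Ephx1 and 0.0216 for Ccnh. Values nearer the threshold were those of Wee1 (0.03335), Tdp1 (0.0389), Uimc1 (0.04425) and Rad54l (0.0465). DESeq2 called 0 genes of this list lower, with 5 lower at an unadjusted p under 0.05, and edgeR called 2 to 4 lower whichever of the 4 libraries was left out. Trp53, the gene of p53 itself, had 0 counts in all libraries. Mdm4, an inhibitor of p53, had 6 and 8 counts in the controls versus 1 and 0 after exposure and was not tested.

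**Figure D5:**
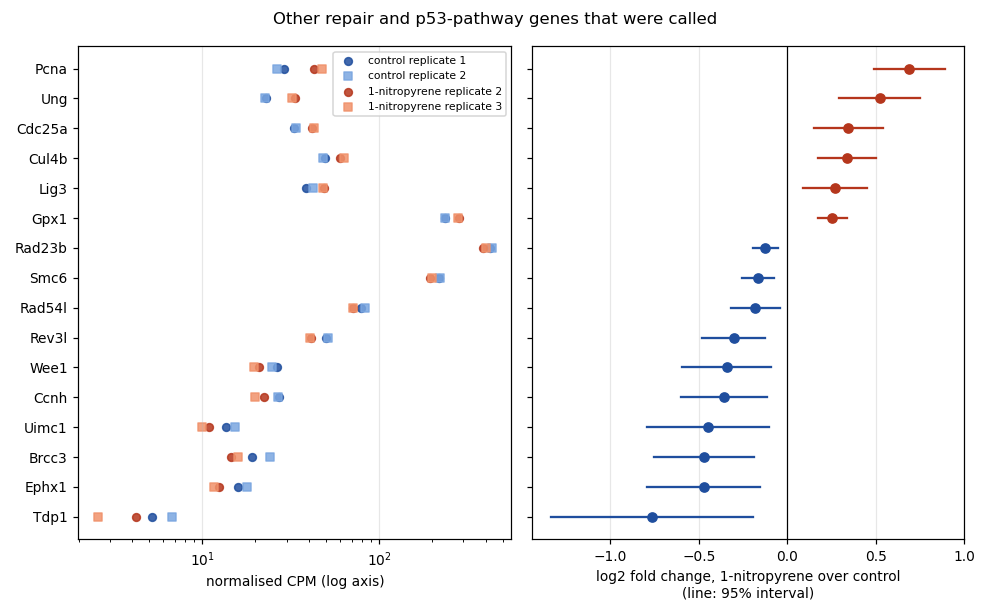
Called genes of the wider list that are named in the text, with normalised CPM in each library (left, log axis) and log2 fold change with its 95% interval (right). Pcna and Ung have the largest rises and Tdp1, the lowest in counts, the largest fall.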

How the data were processed

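The authors' deposited table gives raw read counts per Ensembl gene, 1 column per library, not normalized. Per the submitters' processing notes, HISAT2 2.1.0, featureCounts 1.6.3, DESeq2 and GRCm38 were used, with no roles given. Not given in the sources used here are annotation, strand setting and the handling of reads with several matches. Groups and replicate numbers came from sample titles. Of 53465 identifiers 53360 matched GENCODE M21 for symbols and coordinates. Counts were filtered with filterByExpr, scaled with TMM factors and tested with edgeR 4.0.16 in R 4.3.3 (quasi-likelihood, legacy set to FALSE). The dispersion of 0.000546 was common to all genes, and the further spread was shared by genes of similar level. Calls use a Benjamini-Hochberg adjusted p under 0.05 over 7738 genes and two-sided tests. Each SE was computed as the size of the log2 fold change over the root of the F statistic. Alternatives were other scalings and filters, DESeq2 1.42.0, limma-voom (limma 3.58.1), a robust fit, an adjusted p of 0.01 and each library left out. Values in every library are given for called members and for 12 key members, and the others more briefly. The members and lists were chosen with earlier results of these data known. Btg2, Clspn, Rad50, Trp53bp1 and other members beyond that rule, Npat, Tubgcp4 and Gm26787 were singled out after their values were seen. Of the genes called in the wider list 1 is counted but not reported here.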

Additional observations from a re-analysis of the deposited data

How the results depend on the processing

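No paired analysis was possible because the groups share only replicate number 2. The 3 called members kept their direction in every alternative that gave a value. Ei24 also kept its call in these, while Atm and Xrcc5 each lost it in several. Members called higher numbered 1 with all libraries and 0 with no filter on low counts, at a mean of at least 10 CPM, in DESeq2, in limma-voom and at an adjusted p of 0.01, and 0 to 2 with 1 library left out. DESeq2 gave an adjusted p for 20 members, not including Xrcc5, and 0 members were higher at an unadjusted p under 0.05. At a mean of at least 10 CPM neither Xrcc5 nor Atm was tested. Members called lower numbered 2, with 1 at a mean of at least 10 CPM and in DESeq2, and 1 to 3 with 1 library left out. DESeq2 called 454 higher and 252 lower genes in all. Lower genes overall numbered 532 with no filter and 568 at an adjusted p of 0.01, and 511 to 647 with 1 library left out, the fewest without control replicate 1. Of the wider list DESeq2 called 3 higher and 0 lower. Lower genes of that list numbered 3 with no filter and 4 at an adjusted p of 0.01, and 2 to 4 with 1 library left out, down from 10 whichever library was left out. The cause of these shifts was not tested. The sign of 13 uncalled members changed in at least 1 setting. With 1 library left out, log2 fold changes ran from -0.43 to 1.16 for Chek2, -0.18 to 0.21 for Mre11a, -0.057 to 0.10 for Blm, -0.14 to 0.10 for Xrcc6, -0.33 to 0.064 for Prkdc, -0.99 to 0.050 for Fancd2, -0.094 to 0.052 for Xpc, -0.20 to 0.30 for Ercc3, -0.49 to 0.86 for Polk, -0.26 to 0.20 for Parp1, -0.22 to 0.20 for Bax, -0.34 to 0.071 for Gadd45a and -0.30 to 0.23 for Ckap2. Chek2 was at -0.021 with no scaling factors, Polk at 0.041 in limma-voom, and Bax at -0.0016 with RLE factors, -0.028 with no scaling factors and -0.012 in limma-voom. Low counts limit the genes under 10 CPM most, where a 1.5-fold change lay within about 2 SE.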
